A study of Homo sapiens with 8 samples.

Results

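Binding of the RNA-binding protein IGF2BP1 inside coding exons was examined in H1299 cells, a human non-small cell lung carcinoma line, treated with the IGF2BP1 inhibitor AVJ16 or with its solvent. A peak was taken when it overlapped, by at least 1 nt and on the same strand, the coding sequence of a MANE Select transcript of GENCODE release 44 in an exon that does not hold the stop codon. These exons are called internal coding exons here, and the first coding exon is among them. The rule took 2675 of the 22311 peaks listed for DMSO and 3231 of the 22123 peaks listed for AVJ16. By the labels, H1299 cells of wild-type genotype received 1.5 µM AVJ16 or 0.01% DMSO for 24 h and were then irradiated at 254 nm with 400 mJ/cm2 of UV, which ties proteins to the RNA they touch. In the enhanced crosslinking and immunoprecipitation assay (eCLIP), 2 libraries per treatment came from RNA pulled down with an antibody to IGF2BP1 (IP) and 2 from a size-matched input without the antibody (SMInput), and the cells were prepared in batches from a single thaw. The files hold 1 list of peaks per treatment, with both replicates combined and each peak given as a log2 fold enrichment of IP over SMInput and a −log10 p-value. No value of a single replicate and no expression level is in them, so no spread between replicates could be given, no test between treatments was made, and the identity of the cells was not checked. All intervals below are 95% intervals for counting error only, and peaks of the same gene share an RNA, so the true uncertainty is larger.

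IGF2BP1 is an oncofetal protein that binds mRNA through KH and RRM domains, and the KH domains of its family favour short CA-rich stretches with a CAU core. It is best known for sites in 3′ untranslated regions (3′UTRs), where it stabilises mRNA, but its first described site in the MYC mRNA, the coding region determinant, lies in the coding sequence. Protein bound within the coding sequence meets translating ribosomes, which clear this part of an mRNA and leave the 3′UTR alone. No listed peak was enriched less than 8-fold, 3.00 on the log2 scale, and the −log10 p-values stop at 400. A weaker site is absent from a list whatever its level, and the sequencing depth cannot be read from the lists.

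The sequences of 10 bound stretches are given first, because the strongest peaks and the largest differences between the lists fall on them. Each is the stretch of an internal coding exon under touching peaks of either list, 5′ to 3′ as RNA on build hg38, with every CAU in capitals. MTMR2 held the most enriched DMSO peak, and ATG9A the most enriched DMSO peak without any overlapping AVJ16 peak. NCOA1 and REPS1 were among the genes with the largest falls at a shared peak. TM7SF3, KIAA1549L, ZCCHC2 and ALDH1A2 had the largest rises. MET and FAT3 held strongly enriched AVJ16 peaks that overlapped no DMSO peak.
MTMR2 (chr11:95836148-95836277, minus strand): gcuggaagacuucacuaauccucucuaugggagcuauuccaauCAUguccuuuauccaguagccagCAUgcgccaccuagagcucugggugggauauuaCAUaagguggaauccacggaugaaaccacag
ATG9A (chr2:219224197-219224256, minus strand): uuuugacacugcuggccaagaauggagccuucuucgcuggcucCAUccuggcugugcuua
NCOA1 (chr2:24741952-24742099, plus strand): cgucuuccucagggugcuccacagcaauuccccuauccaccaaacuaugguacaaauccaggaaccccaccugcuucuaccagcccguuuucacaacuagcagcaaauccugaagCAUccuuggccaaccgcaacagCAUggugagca
REPS1 (chr6:138944498-138944584, minus strand): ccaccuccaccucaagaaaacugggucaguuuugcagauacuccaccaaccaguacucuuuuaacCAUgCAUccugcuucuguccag
TM7SF3 (chr12:26990450-26990540, minus strand): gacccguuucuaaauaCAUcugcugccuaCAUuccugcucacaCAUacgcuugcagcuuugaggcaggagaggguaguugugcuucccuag
KIAA1549L (chr11:33542407-33542507, plus strand): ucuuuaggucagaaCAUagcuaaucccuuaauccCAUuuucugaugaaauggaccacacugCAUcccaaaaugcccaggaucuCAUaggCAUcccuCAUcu
ZCCHC2 (chr18:62575211-62575382, plus strand): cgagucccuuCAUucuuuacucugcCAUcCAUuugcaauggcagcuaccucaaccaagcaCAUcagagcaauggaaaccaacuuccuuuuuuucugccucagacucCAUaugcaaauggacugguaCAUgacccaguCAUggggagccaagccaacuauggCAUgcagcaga
ALDH1A2 (chr15:57960770-57960823, minus strand): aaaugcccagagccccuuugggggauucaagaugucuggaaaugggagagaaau
MET (chr7:116783344-116783419, plus strand): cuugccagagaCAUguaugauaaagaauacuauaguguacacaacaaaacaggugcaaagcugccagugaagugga
FAT3 (chr11:92353666-92353790, plus strand): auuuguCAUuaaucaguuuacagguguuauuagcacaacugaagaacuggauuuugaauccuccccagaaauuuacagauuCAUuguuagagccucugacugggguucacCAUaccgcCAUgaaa
The stretches differ in base content. ZCCHC2 holds 8 CAU in 172 nt and the KIAA1549L stretch holds 6, whereas ALDH1A2 holds none in 54 nt and is 31.5% G. NCOA1 is 35.8% C and 16.9% G. REPS1 is 34.5% C and 13.8% G, and its 2 CAU stand 1 nt apart. MET holds 1 CAU in 76 nt and is 17.1% C, so not all of the printed stretches were rich in C or CAU.

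Internal coding exons held 12.0% of the DMSO list (11.6 to 12.4%) and 14.6% of the AVJ16 list (14.1 to 15.1%). The share was 2.62 percentage points higher in the AVJ16 list (1.98 to 3.25). After touching peaks were joined into sites it was 3.09 points higher (2.36 to 3.83), with 2005 sites of 16870 for DMSO and 2411 of 16098 for AVJ16. Among peaks of at least 4 on the log2 scale it was 1.47 points higher, with 6.87% for DMSO and 8.34% for AVJ16. Last coding exons, those with the stop codon, held 1009 DMSO and 1096 AVJ16 peaks, and 3′UTRs held 16520 and 16486. Peaks in internal coding exons were thus more numerous with AVJ16 while the number in 3′UTRs was nearly equal. Peaks of internal coding exons were less enriched than those of 3′UTRs. The median on the log2 scale was 3.45 for DMSO (3.43 to 3.47) and 3.44 for AVJ16 (3.42 to 3.46), against 3.71 and 3.66 in 3′UTRs. A value of 4 or more was reached by 16.9% of the DMSO and 15.6% of the AVJ16 peaks, against 33.2% and 30.6% in 3′UTRs. The highest values were 6.01 with DMSO and 6.20 with AVJ16. For DMSO the median −log10 p was 12.8 and for AVJ16 12.9, and 75 and 104 peaks stood at the limit of 400. They were short, with a median length of 51 nt with DMSO and 47 nt with AVJ16, against 69 and 62 nt in 3′UTRs. Touching peaks formed 474 sites of several peaks with DMSO and 564 with AVJ16, with up to 7 and 9 peaks in a site.

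The peaks fell on 861 genes with DMSO and 939 with AVJ16, 1186 genes in all. That is 24.0% of the 4940 genes with an internal coding exon and a peak in the coding sequence or 3′UTR in either list. These 4940 are called genes with a peak below, and peaks outside coding exons and 3′UTRs do not count for them. Both lists shared 614 genes, 71.3% of the DMSO genes and 65.4% of the AVJ16 genes. A further 247 genes had such a peak only with DMSO and 325 only with AVJ16. The same shares over genes with a peak in any region are not given here. These counts are therefore not read as particular to internal coding exons. Most of these genes were also bound elsewhere: 67.4% of the DMSO genes and 68.4% of the AVJ16 genes also had a 3′UTR peak, whereas 26.9% and 27.4% had no peak in the last coding exon or the 3′UTR of the same list. The peaks were unevenly spread. A single internal coding peak was found in 395 genes with DMSO (45.9%) and 393 with AVJ16 (41.9%), while 49 genes with 10 or more held 29.8% of the DMSO peaks and 81 such genes held 39.3% of the AVJ16 peaks. More peaks were listed with AVJ16 in 585 genes, fewer in 418, and as many in 183. The 325 genes with such a peak only with AVJ16 are among the 585, and the 247 only with DMSO among the 418. Among the 614 genes of both lists, 260 had more with AVJ16, 171 fewer and 183 as many. Touching peaks were counted separately here, so a site split into more peaks also counts as more. The same counts for 3′UTR peaks are not given.

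**Figure D1:**
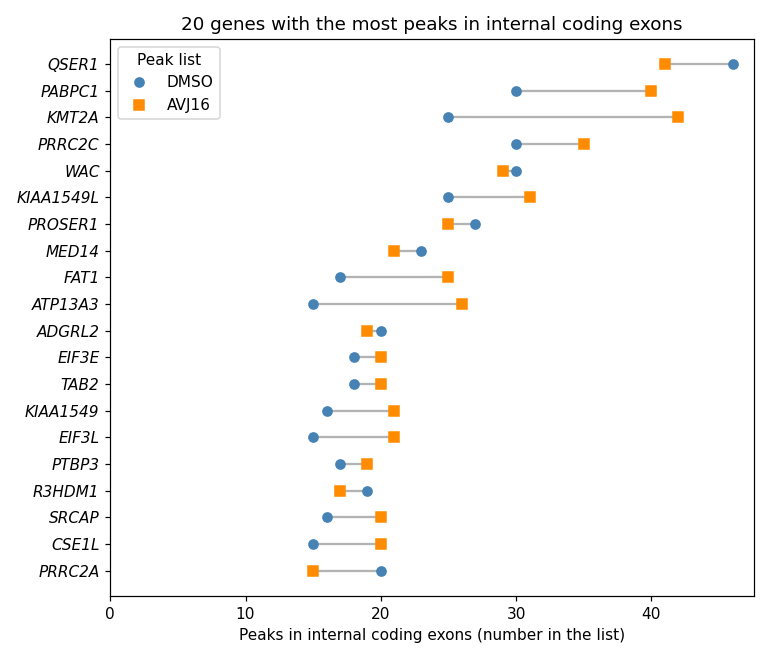
Number of peaks in internal coding exons (horizontal axis) in the DMSO list (circles) and the AVJ16 list (squares) for the 20 genes with the most such peaks in both lists together; grey lines join the values of a gene. QSER1 had 46 and 41, PABPC1 30 and 40, and KMT2A 25 and 42.

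QSER1 had 46 internal coding peaks with DMSO and 41 with AVJ16, spread over 3 of its 12 internal coding exons. KMT2A, a histone H3 lysine methyltransferase, had 25 with DMSO and 42 with AVJ16, and all 25 DMSO peaks overlapped an AVJ16 peak. Their median difference was 0.34 on the log2 scale in favour of AVJ16 (range −0.17 to 0.74), while the 21 shared 3′UTR peaks of KMT2A had a median difference of −0.10. PRRC2C, a protein of stress granules, had 30 and 35, with a median difference of 0.17 over 30 shared peaks. WAC, an adaptor of transcription-coupled histone ubiquitination, had 30 and 29, with −0.25 over 29. PROSER1 had 27 and 25, and KIAA1549L 25 and 31. Nearly all DMSO peaks of these genes thus had an AVJ16 partner, and the median differences lay on both sides of 0.

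PABPC1, the cytoplasmic poly(A)-binding protein, had 30 internal coding peaks with DMSO and 40 with AVJ16, and no 3′UTR peak in either list. The median enrichment of these peaks, on the log2 scale, was 5.11 for DMSO and 4.72 for AVJ16, against 3.45 and 3.44 for all peaks of internal coding exons. The highest AVJ16 peak of an internal coding exon was in PABPC1, at 6.20, and its DMSO partner had 5.18. All 30 DMSO peaks overlapped an AVJ16 peak, with a median difference of 0.01 and a range of −0.43 to 1.02. PABPC1 has close relatives and processed pseudogenes, and how reads that match several copies were counted is not given in the sources used here, so its values are uncertain.

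Gene families, taken by symbol from a list, were compared by the share of their genes with a peak that had one in an internal coding exon. Over all genes with a peak this share was 24.0%. The KMT2, NSD and SETD methyltransferases had 9 of 12 (75.0%, 46.8 to 91.1%), with 38 peaks for DMSO and 63 for AVJ16, most of them in KMT2A. Ribosomal protein genes had 14 of 23 (60.9%, 40.8 to 77.8%). These genes also have many processed pseudogenes, and their counts are uncertain for the same reason as that of PABPC1. Translation initiation factors had 12 of 27 (44.4%, 27.6 to 62.7%), with 60 and 61 peaks, led by EIF3E and EIF3L, subunits of the eIF3 complex. EIF3L had 15 peaks with DMSO and 21 with AVJ16, and EIF3E had 18 and 20. Genes named IPO, XPO, TNPO or KPN, importins and exportins that carry cargo through nuclear pores, had 8 of 18 (44.4%, 24.6 to 66.3%), and nucleoporins named NUP 6 of 12 (interval 25.4 to 74.6%). Members with other names, such as the exportin CSE1L (15 and 20 peaks) and the nucleoporin NDC1 (13 and 21), are not in these counts.

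Several other families lay nearer to or under the share of all genes. Solute carriers had 33 of 117 genes (28.2%, 20.8 to 37.0%), with 46 peaks for DMSO and 84 for AVJ16. SLC44A1, a choline transporter, had 3 and 9 of these and SLC38A1, a glutamine transporter, 1 and 9. Zinc fingers named ZNF had 10 of 80 (12.5%, 6.93 to 21.5%), cadherins with protocadherins and FAT proteins 4 of 29 (13.8%, 5.50 to 30.6%), and kinesins with cytoplasmic dyneins 1 of 15 (6.67%, 1.19 to 29.8%). Among genes with at least 5 internal coding exons, 9 of 29 ZNF genes (31.0%, 17.3 to 49.2%) and 4 of 5 cadherin, protocadherin and FAT genes (80.0%, 37.6 to 96.4%) had such a peak, beside 27.8% of all genes with as many exons. The ATP1 and ATP2 ion pumps lay above the share of all genes, with 5 of 8 (62.5%, 30.6 to 86.3%). Integrins had 4 of 11 (36.4%, 15.2 to 64.6%), proteasome genes named PSM 4 of 15, and aminoacyl-tRNA synthetases 3 of 9. Collagens and ABC transporters each had 1 of 9, plexins with semaphorins 1 of 11, laminins 1 of 4, LDL receptor relatives 2 of 7, Notch receptors 1 of 2 and LGR receptors 1 of 1.

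No peak of an internal coding exon was listed in the following genes known for IGF2BP1 sites in the coding sequence. MYC, the transcription factor with the coding region determinant, had none, and its listed peaks were 4 with DMSO and 1 with AVJ16 in the 3′UTR. BTRC, a substrate receptor of an E3 ubiquitin ligase, had none either, and 2 and 1 in the 3′UTR. ABCB1, a drug efflux pump, and GLI1, an effector of Hedgehog signalling, had no peak in the coding sequence or the 3′UTR in either list. IGF2BP1 itself had none, with 6 and 3 peaks in its own 3′UTR. Sites under the threshold of the lists could not appear, and expression of these genes was not analysed here.

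Peaks of internal coding exons became more frequent towards the 3′ end of the coding sequence. The spliced internal coding sequence of each gene was divided into 5 equal stretches, each of which would hold 20% of peaks spread evenly. With DMSO the shares were 11.2%, 17.5%, 19.6%, 23.1% and 28.6% from the 5′ to the 3′ end, and with AVJ16 10.3%, 16.4%, 18.0%, 24.5% and 30.7%. The interval of the first stretch ended at 12.5% with DMSO and 11.4% with AVJ16, and that of the last began at 26.9% and 29.1%. The first coding exon held 5.61% of internal coding peaks with DMSO and 5.26% with AVJ16 but made up 9.94% and 9.83% of the internal coding sequence of these genes. The exon just before the one with the stop codon held 15.4% and 15.6% but made up 7.77% and 7.88%. Counting only the most enriched peak of each gene, an alternative chosen after seeing the data, left 31.1% of DMSO and 33.3% of AVJ16 genes in the last stretch, so the gradient was also there when each gene counted once.

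**Figure D2:**
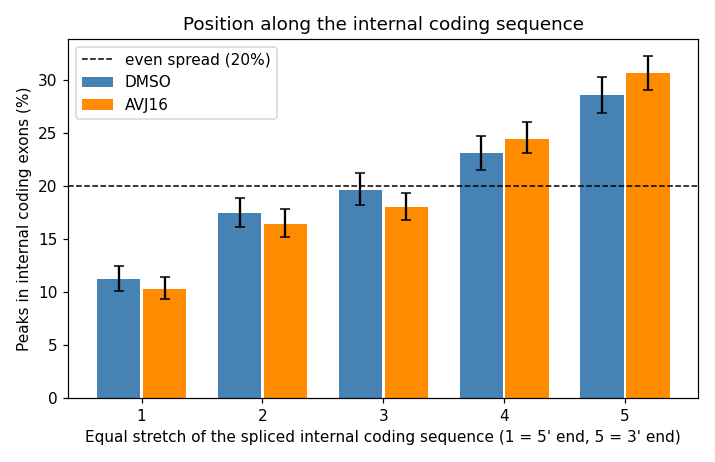
Share of internal coding peaks (vertical axis, percent of the list's peaks in internal coding exons) in 5 equal stretches of the spliced internal coding sequence, from the 5′ end (1) to the 3′ end (5), for DMSO and AVJ16; error bars are 95% Wilson intervals and the dashed line is the 20% of an even spread. The shares increase from 11.2% to 28.6% with DMSO and from 10.3% to 30.7% with AVJ16.

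Long exons held a peak more often than short ones, while the share of their bases under a peak differed far less. With DMSO, 1657 of 12153 internal coding exons of the bound genes held a peak (13.6%), and with AVJ16 1913 of 13514 (14.2%). The median coding length was 151 nt in bound and 124 nt in unbound exons with DMSO, and 147 nt and 125 nt with AVJ16. The share of exons with a peak ran from 8.44% of those up to 100 nt to 66.0% of those over 1000 nt with DMSO, and from 9.32% to 65.1% with AVJ16. Of their bases, 5.66% of the shortest class and 8.55% of the longest lay under a peak with DMSO, with the highest share, 9.55%, from 401 to 1000 nt. With AVJ16 the share was 6.47% in the shortest and 8.82% in the longest class. The 3 longest bound exons were exon 11 of SPEN, a transcriptional repressor (8176 nt, chr1:15928091-15936266), exon 11 of SRRM2, a splicing factor (6701 nt, chr16:2761561-2768261), and exon 5 of MAP1B, a microtubule-associated protein (6502 nt, chr5:72193866-72200367). They held 1, 9 and 2 peaks with DMSO and 5, 15 and 7 with AVJ16.

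**Figure D3:**
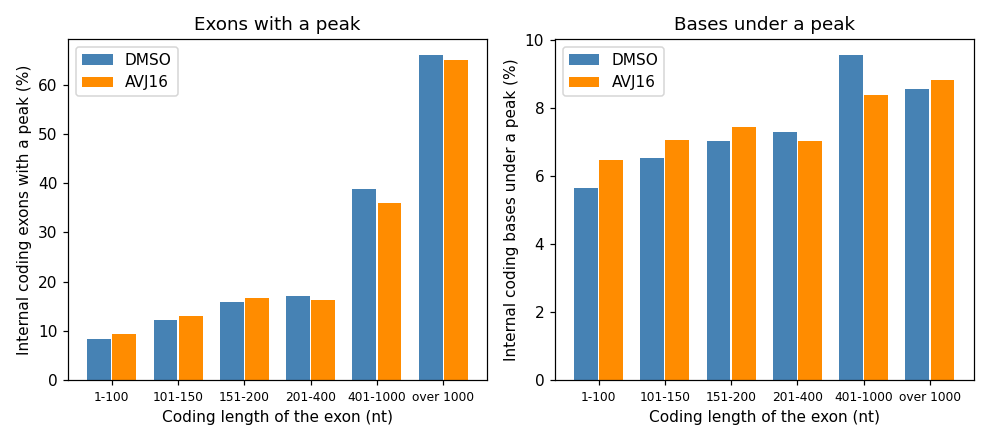
Internal coding exons by coding length in nt (horizontal axis), in genes with a peak in such an exon; the left panel gives the percent of exons with a peak and the right panel the percent of their bases under a peak, for DMSO and AVJ16, without error bars. Exons over 1000 nt held a peak in 66.0% and 65.1% of cases, while only 8.55% and 8.82% of their bases were covered.

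Few bases under these peaks lay outside the coding part of the exon, that is in an intron or, for the first coding exon, the 5′UTR. An exon edge was reached or passed by 23.8% of peaks with DMSO and 24.3% with AVJ16. Of all DMSO peaks 11.1% ran past the coding part of their exon, as did 10.7% of the AVJ16 peaks, yet only 1.14% and 1.15% of all bases under these peaks lay outside it. Where a peak reached the 3′ end of an exon (343 exons with DMSO and 426 with AVJ16), the next internal coding exon had a peak at its 5′ end in 132 and 180 cases. The last internal coding exon of a gene has no such next exon but could be among the 343 and 426, so no share is given.

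Bound coding sequence was richer in C and poorer in G than the rest of the same genes. Windows of 51 nt centred on each peak were set beside 47596 windows of the same length, laid end to end over the internal coding sequences of the 1186 genes, that touched no peak. C made up 28.6% of the bases with DMSO and 27.5% with AVJ16, against 23.9% in unbound windows. G made up 19.1% and 19.7%, against 24.1%. The gap in C was largest at the second base of codons, at 31.1% with DMSO and 29.7% with AVJ16 against 24.4%, and the gap in G at the first base, at 24.1% and 24.9% against 30.6%. A differed by less, with 26.1% and 26.4% against 27.9%, and U with 26.2% and 26.4% against 24.0%.

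A CAU was found in 66.1% of the DMSO windows and 67.4% of the AVJ16 windows, against 54.4% of unbound windows. The ratios were 1.22 (1.18 to 1.25) and 1.24 (1.21 to 1.27). Motifs were searched on the RNA strand alone, with N for any base. ACACAC was found in 1.35% and 1.73% of windows, against 0.908%, with ratios of 1.48 (1.06 to 2.08) and 1.91 (1.45 to 2.52). Of the motifs named in the study's motif search, CCNGUU had ratios of 1.43 (1.22 to 1.68) and 1.36 (1.17 to 1.58), and UCCAG of 1.20 (1.07 to 1.33) and 1.23 (1.12 to 1.36). Among DMSO peaks of at least 4 on the log2 scale the ratio of UCCAG was 0.988. UCCUNNUGG and GNGGCCC had intervals that held 1, the latter with ratios of 0.973 and 0.731. UUUCCGAA was found in 1 DMSO window and 3 AVJ16 windows. UGGAC, the core of the motif at which adenosine is methylated to m6A, had ratios of 0.876 (0.750 to 1.02) and 0.904 (0.786 to 1.04). Windows of touching peaks overlap, so these intervals are too narrow.

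The short words with the highest ratios were CA-rich and nearly free of G. Among 2027 words of 6 nt present in at least 1% of unbound windows, UCCACA had the highest ratio with DMSO, 2.65, followed by UUCCAC with 2.58 and CACAAC with 2.49. With AVJ16 the first were UUCCAC with 2.43, AUCACC with 2.39 and CUUCAC with 2.38. None of the first 10 words with DMSO contained a G, and 9 of the first 10 with AVJ16 did not. The lowest ratio was 0.109, of CUAGAA, with DMSO and 0.165, of CGAGGA, with AVJ16. Words of G and A alone were also among the 5 lowest of each list, such as GAAAGA with 0.229 with DMSO and AAGAGA with 0.262 with AVJ16. Ratios in both lists followed each other across words (Spearman's rho 0.904), as a description, since the unbound windows and many peaks are the same. These words were ranked on the same peaks and have no test.

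Peaks were then compared between treatments by overlap of at least 1 nt on the same strand. Of the DMSO peaks in internal coding exons, 1704 of 2675 overlapped an AVJ16 peak (63.7%, 61.9 to 65.5%), and of the AVJ16 peaks 1831 of 3231 overlapped a DMSO peak (56.7%, 55.0 to 58.4%). The 971 DMSO peaks without a partner were 36.3% of the peaks of internal coding exons, against 33.8% for all regions together, and the 1400 without a partner in the AVJ16 list were 43.3%, against 29.2%. In 3′UTRs 70.6% of DMSO peaks and 75.2% of AVJ16 peaks had a partner. The difference of internal coding exons to 3′UTRs was −6.95 percentage points with DMSO (−8.91 to −5.01) and −18.5 points with AVJ16 (−20.3 to −16.7). Among peaks of at least 4 on the log2 scale these differences were 1.24 and −9.57 points. Without the 85 genes of 10 or more internal coding peaks in either list, an alternative chosen after seeing the data, they were −20.7 and −30.1 points, and −20.6 and −29.9 points when the 3′UTR peaks of these genes were left out as well. To last coding exons it was −2.70 points with DMSO (−6.09 to 0.774) and −5.19 points with AVJ16 (−8.50 to −1.82).

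Against 3′UTRs, the lower overlap of AVJ16 peaks was also there among peaks of equal enrichment. It is not separate from the larger AVJ16 count: 1704 and 1831 internal coding peaks overlapped, of 2675 and 3231 listed. Weak peaks overlapped less in both regions, and internal coding peaks are weaker, so peaks were compared within classes of enrichment. In the DMSO list, internal coding and 3′UTR peaks then had closer shares. They were 42.6% and 46.7% from 3 to 3.25 on the log2 scale, a difference of −4.06 points (−7.88 to −0.191), and in the other 4 classes the interval of the difference held 0, with 74.7% and 72.9% from 3.5 to 4, and 92.8% and 92.9% from 4.5 upwards. In the AVJ16 list, the share in internal coding exons was lower in 4 of 5 classes beyond the counting error. It was 39.3% against 56.3% from 3 to 3.25, 52.1% against 68.0% from 3.25 to 3.5, 66.5% against 77.9% from 3.5 to 4, and 75.3% against 86.8% from 4 to 4.5. From 4.5 upwards it was 90.7% against 92.8%, a difference of −2.06 points (−8.10 to 1.91). In last coding exons the shares of the AVJ16 list in these 5 classes were 48.5%, 64.1%, 66.3%, 69.8% and 83.6%. From 3.5 upwards they were thus no higher than in internal coding exons.

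**Figure D4:**
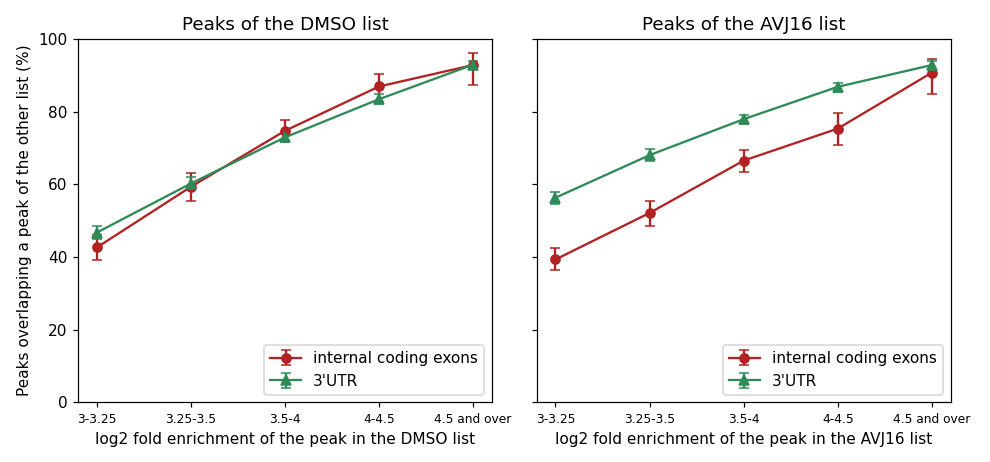
Share of peaks that overlap a peak of the other list (vertical axis, percent) by log2 fold enrichment (horizontal axis, 5 classes), for peaks of internal coding exons (circles) and 3′UTRs (triangles) in the DMSO list (left) and the AVJ16 list (right); error bars are 95% Wilson intervals. The curves lie within about 4 points of each other on the left, whereas on the right internal coding peaks lie 11.4 to 17.0 points lower in the first 4 classes.

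Peaks without a partner mostly lay in genes bound in the other list as well. Of the 971 DMSO peaks without a partner, 67.7% were in a gene with an internal coding peak in the AVJ16 list. A larger share, 86.3%, was in a gene with any AVJ16 peak in a coding exon or 3′UTR. Of the 1400 AVJ16 peaks without a partner, the shares were 66.1% and 90.2%. Genes with many peaks weigh more in these shares, and the same shares for other regions are not given. They are therefore not read as particular to internal coding exons. The median enrichment of peaks without a partner, on the log2 scale, was 3.26 for DMSO and 3.30 for AVJ16, against 3.59 and 3.57 for those with a partner. Windows of AVJ16 peaks without a partner held 26.2% C and 21.3% G, against 28.5% and 18.6% with a partner, and 65.4% of them held a CAU, against 68.9%. With DMSO, windows without a partner held 28.2% C and 20.4% G, against 28.7% and 18.4%.

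The strongest DMSO peak without a partner was in exon 8 of ATG9A, a lipid scramblase of autophagy, at a log2 fold enrichment of 5.49 (−log10 p 16.0). It lies at chr2:219224218-219224256, inside the ATG9A stretch printed above, where the AVJ16 list had no peak. ADGRL3, a latrophilin receptor, had its only internal coding peak in the DMSO list, at 4.84 in exon 18 (chr4:61979650-61979766), and no peak of any coding or 3′UTR kind with AVJ16. USPL1, a SUMO protease, had 4.76 in exon 8 (chr13:30653149-30653203). ZDHHC2, a palmitoyltransferase, had 4.72, and PROSER1 4.68 in a long exon with other peaks. For these genes the AVJ16 list shows only that no peak passed its thresholds there.

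With AVJ16, the strongest peak without a partner was in PABPC1, at 5.65, beside other peaks of the same exon in both lists. FAT3, an atypical cadherin, had 5.01 in exon 2 (chr11:92353666-92353790) with a −log10 p of 7.51. NDC1, a membrane nucleoporin, had 4.89 in exon 8 (chr1:53807678-53807721) with a −log10 p of 30.0, and its internal coding peaks numbered 13 with DMSO and 21 with AVJ16. ABLIM1, an actin-binding LIM protein, had 4.87 in exon 19 (chr10:114441048-114441077). MET, the receptor of hepatocyte growth factor, had 4.82 in exon 19 (chr7:116783344-116783419). At the 4 internal coding peaks of MET found in both lists the median difference was −0.55, in favour of DMSO.

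At shared peaks the enrichment was nearly the same in both lists on average. The median AVJ16 minus DMSO difference of the log2 fold enrichment was −0.023 (−0.046 to 0.002) over the 1704 shared DMSO peaks of internal coding exons, and single peaks ranged from −1.93 to 2.28 with an SD of 0.475. The difference was below −0.5 at 225 peaks (13.2%, 11.7 to 14.9%), against 20.1% of shared peaks of all regions, and above 0.5 at 202 (11.9%, 10.4 to 13.5%), against 12.6%. Last coding exons had a median difference of −0.091 (−0.123 to −0.051), with 20.7% lower and 9.70% higher. In 3′UTRs 21.3% were lower, so that internal coding exons differed from them by −8.05 points (−9.75 to −6.21), and 12.9% were higher.

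A DMSO peak under 3.5 cannot be listed as lower by more than 0.5. Among shared peaks above 3.5 with DMSO, 225 of 979 were lower in internal coding exons, against 2481 of 8480 (29.3%) in 3′UTRs, a difference of −6.27 points (−8.98 to −3.37), and against 34.2% in last coding exons, a difference of −11.3 points (−16.6 to −6.03). Within narrower classes of DMSO enrichment the shares in internal coding exons and 3′UTRs were closer. They were 12.3% and 13.7% from 3.5 to 4, 35.7% and 34.1% from 4 to 4.5, and 44.5% and 49.8% from 4.5 upwards, and the interval of each difference held 0. In last coding exons the shares of the same classes were 19.1%, 39.6% and 65.8%, and the difference of internal coding exons to them was −6.83 points (−13.3 to −1.17), −3.89 points (−14.0 to 5.92) and −21.2 points (−34.1 to −6.89). Over all shared peaks, the share higher by more than 0.5 differed from that in 3′UTRs by −1.09 points (−2.67 to 0.636). Among those with an AVJ16 partner above 3.5, 202 of 957 (21.1%) were higher, against 1511 of 7912 (19.1%) in 3′UTRs. This difference was 2.01 points (−0.610 to 4.84). Within classes of DMSO enrichment, higher peaks were less frequent in internal coding exons in 3 of 5 classes beyond the counting error. Their shares were 21.0% against 28.1% from 3 to 3.25, 7.94% against 12.8% from 3.5 to 4, and 4.04% against 7.97% from 4 to 4.5. The enrichments of shared internal coding peaks had a Pearson's r of 0.527 across 1704 peaks, which share genes, and 393 of these DMSO peaks shared their AVJ16 partner with another.

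**Figure D5:**
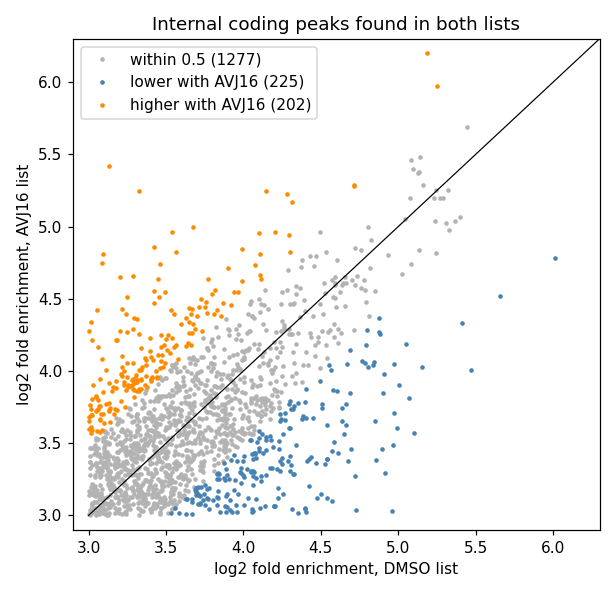
Log2 fold enrichment in the DMSO list (horizontal axis) and the AVJ16 list (vertical axis) of the 1704 internal coding peaks found in both; the line marks equal values and colours mark differences beyond 0.5. Lower peaks (225) and higher peaks (202) lie on both sides of the line, and no point lies under 3.00 on either axis because weaker sites are not listed.

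The largest fall was in exon 19 of NCOA1, a coactivator of nuclear receptors, where a peak of 4.96 with DMSO (chr2:24741956-24742006) met one of 3.03 with AVJ16, a difference of −1.93. The AVJ16 peak spans the whole printed NCOA1 stretch, so both values cover pieces of different length. Whether this bears on the difference was not tested. Next among the genes described here, REPS1, an endocytic adaptor, went from 4.91 to 3.30 in exon 5 (chr6:138944495-138944529, −1.62). ADGRL2, a latrophilin receptor, went from 5.10 to 3.57 in exon 13 (chr1:81966518-81966573, −1.53), although its other shared peaks reached a difference of 1.42 the other way. GPR137B, a lysosomal membrane protein, went from 4.97 to 3.49 in exon 4 (chr1:236179944-236179999, −1.48).

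The largest rise was in exon 6 of TM7SF3, a multi-pass membrane protein, from 3.14 to 5.42 (chr12:26990449-26990540, 2.28). The AVJ16 peak covered 45 nt of the 92 nt of the DMSO peak, and the median difference of the 8 shared TM7SF3 peaks was −0.25. KIAA1549L had 3.33 with DMSO and 5.24 with AVJ16 in exon 2 (chr11:33542441-33542501, 1.92), while another peak of the same exon (chr11:33543724-33543771) went from 5.66 to 4.52. ZCCHC2, a zinc-finger protein, had 3.10 and 4.81 in exon 13 (chr18:62575296-62575382, 1.72). ALDH1A2, which makes retinoic acid, had 3.09 and 4.75 in exon 12 (chr15:57960771-57960819, 1.66). TSG101, a subunit of ESCRT-I, had 3.20 and 4.65 in exon 4 (chr11:18514729-18514830, 1.45). Each of these 5 genes also had a shared internal coding peak with a negative difference.

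The most enriched DMSO peak, in exon 14 of MTMR2, a myotubularin-related lipid phosphatase, had 6.01 (chr11:95836145-95836196), and its partner 4.78. All 5 DMSO peaks of MTMR2 in internal coding exons had a partner, and every difference was negative, from −1.23 to −0.22. ZDHHC2 had 5.47 with DMSO and 4.01 with AVJ16 at another of its peaks. RNF130, an E3 ubiquitin ligase, had 5.44 in exon 7 with DMSO and 5.69 with AVJ16 (chr5:179966914-179966920). Among genes with at least 3 shared internal coding peaks, XPO7, an exportin, was the only one in which all were lower by more than 0.5, with 3 shared peaks and a median of −0.87 (−1.22 to −0.70), and no gene had all higher. PCBP2, a poly(C)-binding protein chosen after its values were seen, came near to this: it had 7 peaks with DMSO and 20 with AVJ16, and its 7 shared peaks differed by 0.46 to 0.72.

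The differences at coding and 3′UTR peaks of the same gene showed little relation. In 322 genes with a shared peak of each kind, the median differences had the same sign in 173 (53.7%). Both were negative in 100 genes and both positive in 73. The correlation of both medians across these genes was near 0, with a Pearson's r of 0.0192 and a Spearman's rho of 0.0738, given as a description because each gene's values rest on few peaks. The median over genes was −0.011 for internal coding peaks and −0.069 for 3′UTR peaks. KMT2A is an example, with 0.34 at coding and −0.10 at 3′UTR peaks, whereas QSER1 had −0.22 and −0.56.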

How the data were processed

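The members, gene lists, motifs and alternatives were chosen with earlier results of these data known. The authors trimmed reads with cutadapt, discarded those from repeats and mapped the rest with STAR. PCR duplicates were taken out before CLIPper called the peaks, and the coordinates are on hg38 by the submitters' processing notes. Column 5 of each deposited list holds the log2 fold enrichment of IP over SMInput reads in a peak, and column 4 the −log10 p of that comparison, both computed by the authors on both replicates of a treatment. How the replicates were combined is not given in the sources used here. Each list was normalized to its own inputs, and read depth is unknown.

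The methods name an older Gencode release. Here peaks were assigned with GENCODE release 44 (19061 MANE Select coding transcripts, of which 16995 have an internal coding exon), in the order internal coding exon, last coding exon, 3′UTR. No peak overlapped internal coding exons of 2 genes. Each peak was paired with the peak of the other list that overlaps it most, on the same strand. A difference beyond 0.5, the limit in the study's methods, was counted. Windows of 51 nt were read along the spliced internal coding sequence. Shares have Wilson intervals, differences of shares Newcombe intervals, medians order-statistic intervals and motif ratios log-ratio intervals (95%). The study's own test of differential peaks needs reads per replicate and was not made. Region assignment, pairing, motif counts and intervals were tested on simulated data. Python 3.11.15, numpy 2.4.6, scipy 1.17.1, pysam 0.24.0 and matplotlib 3.10.9 were used.

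Named genes were those known for coding region sites of IGF2BP1, the 5 with the most peaks, and those of the 5 most enriched peaks, the 5 largest falls and rises and the 5 most enriched peaks without a partner (per list where lists differ). Added to these were genes with at least 3 shared peaks all changed one way, the 3 longest bound exons, and IGF2BP1. Members of families are named as examples. Some genes that these rules name are not reported here. PCBP2, CSE1L and the genes of the closing section were chosen after their values were seen. Alternatives added after seeing the data counted only the most enriched peak of each gene, or left out genes with 10 or more internal coding peaks in either list.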

Additional observations from a re-analysis of the deposited data

How the results depend on the processing

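No paired analysis was possible because each deposited list combines both replicates, so leaving out a replicate could not be tried either. Of 222 alternative values, 132 stayed within the interval of the value reported (for counts, within 1.5 times), 88 moved and 2 reversed. Values are given for DMSO and then AVJ16. Counting peaks of at least 4 on the log2 scale alone, they numbered 451 and 505 (6.87% and 8.34% of all listed peaks that strong, a difference of 1.47 points) in 183 and 214 genes, 107 of them in both lists. Without the 85 genes of 10 or more internal coding peaks, 1667 and 1931 peaks remained. With exons defined over all protein-coding transcripts, 11.5% and 13.9% of the lists were in internal coding exons, and without first coding exons 11.3% and 13.8%. At least 2 peaks were found in 466 and 546 genes, 353 in both lists. By the 5′ end of a peak in place of its midpoint, the first stretch held 12.7% and 11.6% and the last 26.6% and 28.8%, and by the most enriched peak of each gene the last held 31.1% and 33.3%. Within 5 nt of an exon edge lay 43.9% and 44.5%. The unbound exons of all genes with a peak had a median of 122 nt for AVJ16.

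C was 29.2% and 28.2% in the peaks as called and 27.6% and 26.8% for the most enriched peak of each gene, and G was 18.8% and 19.4%, and 19.7% and 20.1%. The ratio of CAU was 1.12 in both lists with wider windows, 1.26 and 1.29 against all genes with a peak, 1.29 and 1.30 for peaks of at least 4, and 1.27 for AVJ16 with the most enriched peak of each gene. For AVJ16 the ratio of ACACAC was 1.40 with wider windows and 2.84 for peaks of at least 4, and that of CCNGUU 1.12 for peaks of at least 4. The ratio of UCCAG reversed to 0.988 for DMSO peaks of at least 4. The cause was not tested.

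A partner was found for 47.6% and 39.4% with an overlap of 50% of both peaks, 88.7% and 79.6% of peaks of at least 4, 67.9% and 61.1% with a −log10 p of at least 5, 58.7% and 50.8% of joined sites, and 49.9% and 45.1% without genes of 10 or more peaks. The difference to 3′UTRs reversed to 1.24 points for DMSO peaks of at least 4 and was −9.57 for AVJ16. It was −16.2 for AVJ16 with an overlap of 50%, −20.7 and −30.1 without genes of 10 or more peaks, and −20.6 and −29.9 when their 3′UTR peaks were left out too. Centred on all shared peaks, the median difference at shared peaks was 0.038, with 11.2% lower and 14.4% higher. Lower and higher shares were 10.9% and 7.81% for peaks of at least 4 in both lists, 9.67% and 8.18% with a −log10 p of at least 20, and 3.29% and 1.94% with a limit of 1. A gene share of 24.0% was 12.4% when a peak in both lists was asked for, and 27.8% with at least 5 internal coding exons.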

Other observations

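Some genes differed between the lists mainly in how many internal coding peaks they had. SLIT2, a secreted guidance ligand, had 18 with DMSO and 7 with AVJ16, and 2 of the DMSO peaks had a partner. ATXN2L, an RNA-binding protein of stress granules, had 8 and 0, and ARID1A, a subunit of the SWI/SNF chromatin remodeller, had 9 and 1. Their DMSO peaks reached at most 3.30 in ATXN2L, 3.54 in ARID1A and 4.32 in SLIT2 on the log2 scale of fold enrichment, with medians of 3.15, 3.08 and 3.22, while 3 of the 4 DMSO peaks in the ARID1A 3′UTR overlapped an AVJ16 peak. In the other direction, ATP11B, a phospholipid flippase, had 4 and 17, KDELR1, a receptor that returns proteins to the endoplasmic reticulum, had 4 and 13, PIGN, an enzyme of GPI anchor synthesis, had 2 and 11, and UTP4, a factor of ribosome biogenesis, had 2 and 11. The AVJ16 peaks of PIGN lay in 11 different exons, with a median of 3.21. These genes were chosen for the size of the difference in counts, which has no test, and their median log2 fold enrichment in a list lay between 3.04 in SLIT2 and 3.73 in ATP11B, both with AVJ16.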
